A study of Rattus norvegicus with 8 samples.

Results

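The regions described here are the glucocorticoid receptor (GR) binding regions of rat hippocampus that lay 10 kb or less from another GR binding region on the same chromosome. The gap was counted from the end of one region to the start of the next, and regions linked by such gaps were chained into clusters. Of 7298 regions in the merged list, 1553 (21.3%) had such a neighbour. They formed 612 clusters of 2 to 4 regions, which held 1326 regions, and 25 clusters of 5 or more, which held 227. The other 5745 regions were isolated. The rule used position alone. The merged list itself held only the strongest peaks of each group, with a lowest deposited tag density of 9.37. A region therefore needed a high tag density in at least 1 group.

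GR binding was mapped by chromatin immunoprecipitation and sequencing (ChIP-seq) in whole hippocampus of male Sprague-Dawley rats aged 9 weeks. Every rat was adrenalectomised, which removes the source of its own corticosterone, and had a cannula in the jugular vein. Corticosterone given in the drinking saline was withdrawn 12 h before the experiment, and corticosterone was then infused through the cannula in both groups for 30 min. The non-stressed control (NSC) group stayed in the home cage, and the stressed group was restrained during the infusion. Each group had 2 GR ChIP libraries, made with a cocktail of anti-GR antibodies on chromatin pooled from several rats, and 2 input libraries, which gives 8 libraries in all. Whole hippocampus mixes neurons and glia, and cells in which GR was bound more strongly cannot be told apart from more cells with GR bound. All rats had the same route of hormone and no adrenals, so the comparison is of restraint with no restraint under infused corticosterone.

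GR is a nuclear receptor for corticosterone, the main glucocorticoid of the rat. Hormone moves it to the nucleus, where it binds DNA at glucocorticoid response elements or together with other transcription factors, and it can raise or lower transcription of genes nearby or at a distance. Regulatory DNA of hormone-responsive genes often holds several GR binding sites within a short distance, so whether neighbouring sites behave alike is a question of its own.

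Each region took, from each group's list, the strongest peak that overlapped it by 1 bp or more. A peak is an enriched stretch common to the 2 replicates of a group, and its maximum tag density is a coverage value that the authors normalised to input. There is 1 combined value per group and peak, so no value has a replicate error, no test between groups could be made, and the lists do not give sequencing depth. Ranges in brackets are 95% intervals, by Wilson's method for shares and from order statistics for medians, and they cover only the number of regions or pairs counted. A region with a peak from one group alone is called NSC-only or stressed-only. This means that the other list had no entry there, not that binding was absent. The base letters and genes at the regions were not analysed here.

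Most clusters were pairs. There were 525 clusters of 2 regions, 72 of 3 and 15 of 4, and the largest held 30. Gaps inside clusters of 2 to 4 ran from 2 to 9942 bp with a median of 3094 bp (2682 to 3542, n = 714 adjacent pairs), and these clusters spanned a median of 4820 bp. Regions in clusters of 5 or more were packed more tightly, with a median gap of 656 bp (523 to 1083, n = 202) and a median span of 19042 bp. Gaps of 1 kb or less made up 28.6% (25.4 to 32.0) of those in clusters of 2 to 4 and 56.4% (49.5 to 63.1) in the larger clusters. The limit of 10 kb did not fall at a break. There were 47 gaps between 9 and 10 kb and 48 between 10 and 11 kb. The 76 regions whose nearest gap lay just inside the limit, from 9 to 10 kb, had a median deposited tag density of 18.7, against 19.0 for the 85 regions just outside it, from 10 to 11 kb. Region length was alike in all classes, with a median of 541 bp in clusters of 2 to 4, 520 bp in the larger clusters and 531 bp in isolated regions.

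**Figure D1:**
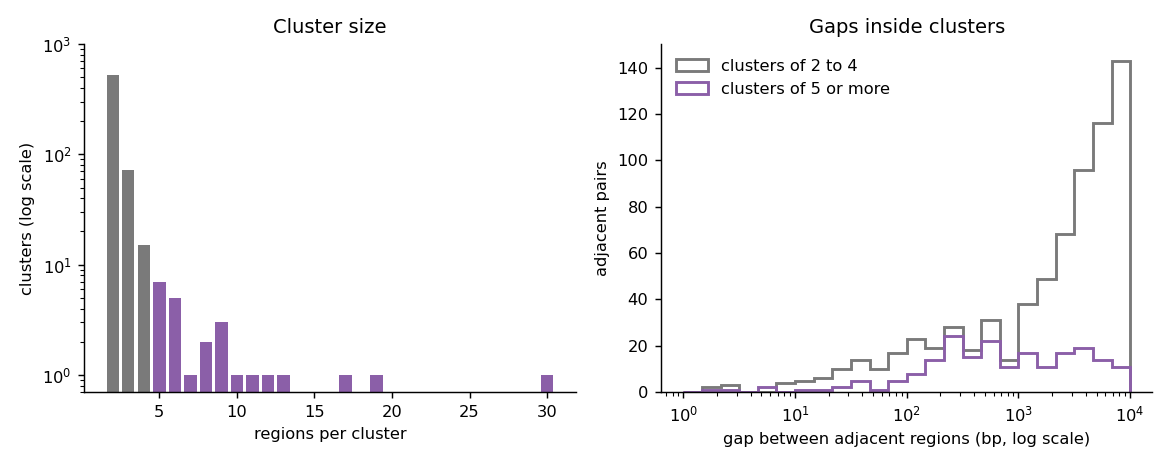
Left, number of clusters (log scale) against the number of regions in a cluster. Right, gap between adjacent regions of a cluster in bp (log scale) against the number of adjacent pairs. Grey is clusters of 2 to 4 and purple clusters of 5 or more. The smaller clusters have most gaps above 1 kb, and the larger clusters have 114 of 202 gaps at or below it.

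Some close neighbours were not separate measurements. In the NSC list, 1159 of 19506 peaks (5.94%) carried the same tag density, z-score and p-value as the entry before or after them, and in the stressed list 2461 of 23970 did (10.3%). Such entries stood a median of 51 bp apart among NSC peaks and 78 bp among stressed peaks, and are treated here as 1 record listed in pieces. In clusters of 2 to 4, 73 of 714 adjacent pairs (10.2%, 8.21 to 12.7) held pieces of 1 record, or 1 peak that reached across both regions. All 73 had gaps of 1 kb or less, and 59 of them had gaps of 200 bp or less. In 61 of the 612 clusters, every region belonged to 1 record. In clusters of 5 or more, 9 of 202 pairs shared a record, in 6 of the 25 clusters.

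One such cluster was on chromosome 1 from 166760076 to 166761004 (positions here are on the rn5 build). Its 3 regions, of 271, 35 and 559 bp, lay 32 and 34 bp apart, and each carried a stressed tag density of 11.3 and a stressed z-score of 44.4. The cluster thus holds a single stressed measurement, written 3 times, and no NSC peak. A stronger example was on chromosome 9 from 9297655 to 9298700, where regions 16 bp apart both had 24.5 in the stressed list. An NSC peak of 20.3 covered the first region alone, so the pair reads as a shared region beside a stressed-only region although the stressed value is one and the same.

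Regions that shared a record were weak and came mostly from the stressed list. In clusters of 2 to 4 their median deposited tag density was 10.1 (9.96 to 10.2, n = 139), against 20.3 (19.5 to 20.9, n = 1193) for regions in pairs with records of their own. Of the 73 pairs, 34 were stressed-only in both regions, 22 joined a stressed-only region to one with both groups, and 14 had both groups in both regions. Stressed records were shared in 70 of the 73 pairs and NSC records in 17. Joining such regions into 1 left 1410 clustered regions of 7216, in 552 clusters of 2 to 4 and 24 of 5 or more. Gaps of 1 kb or less then made up 20.5% (17.6 to 23.8) of those in clusters of 2 to 4. Values after joining are given beside some of the main shares, medians, counts and correlations, and the others are as listed.

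As listed, the share of regions with peaks from both groups was near that of the merged list in clusters of 2 to 4. It was somewhat higher in the larger clusters. Both groups were present in 816 of 1326 regions in clusters of 2 to 4 (61.5%, 58.9 to 64.1) and in 150 of 227 in clusters of 5 or more (66.1%, 59.7 to 71.9). Over all merged regions the share was 58.9%, and over isolated regions 58.1%. Isolated regions whose nearest gap was 10 to 20 kb had 62.3% (58.4 to 66.0, n = 626). At the limit itself, the share was 64.5% for nearest gaps of 9 to 10 kb and 67.1% for 10 to 11 kb. With shared records joined, the share was 64.5% (61.8 to 67.2) in clusters of 2 to 4 and 68.7% (62.2 to 74.5) in the larger ones. NSC-only regions made up 179 of the 1326 (13.5%) and 28 of the 227 (12.3%), against a background of 16.3% of all merged regions. Stressed-only regions made up 331 (24.96%) and 49 (21.6%), against 24.8% of all merged regions, and 20.7% and 21.0% once shared records were joined.

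The share with both groups rose with deposited tag density in clustered and isolated regions alike. This has a limit, since the deposited value was the only or higher group value in 7282 of 7298 merged regions. The classes thus rest on the same peaks as the share, and the part of this in the rise was not tested. The merged list was split into 5 classes of nearly equal size by deposited tag density. From the lowest to the highest class, the share was 26.6%, 34.0%, 55.6%, 84.3% and 94.04% in clusters of 2 to 4. In isolated regions it was 25.8%, 27.6%, 57.6%, 85.9% and 98.5%. In clusters of 5 or more it was 40.6%, 48.9%, 52.6%, 77.3% and 89.7%, over 32 to 68 regions per class. The highest class began at a tag density of 27.8 and the lowest ended at 12.8.

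The make-up of a pair went with its gap. Among clusters of 2 to 4, both regions held both groups in 32 of 111 pairs with a gap of 200 bp or less (28.8%, 21.2 to 37.9) and in 22 of 93 with a gap from 200 bp to 1 kb (23.7%, 16.2 to 33.2). The count was 36 of 80 from 1 to 2 kb (45.0%), 90 of 188 from 2 to 5 kb (47.9%) and 126 of 242 from 5 to 10 kb (52.1%, 45.8 to 58.3). Pairs that were stressed-only in both regions ran the other way. They made up 28.8% and 24.7% of pairs in the first and second of these gap ranges, and 12.5%, 5.32% and 5.37% in the others. Records shared between neighbours accounted for 28 of the 32 pairs stressed-only in both regions with gaps of 200 bp or less, and for 6 of the 23 with gaps from 200 bp to 1 kb. Among pairs with records of their own and gaps of 1 kb or less, 21 of 131 were stressed-only in both regions (16.0%, 10.7 to 23.3), against 33 of 510 at wider gaps (6.47%, 4.64 to 8.95). Peaks of both groups were present in 52.5% (46.4 to 58.5) of the regions of those close pairs with records of their own and in 67.8% (64.8 to 70.7) of the regions in pairs with gaps above 1 kb. In clusters of 5 or more the order was not the same, with 67.7% (60.2 to 74.4, n = 164) at gaps of 1 kb or less and 59.1% (50.8 to 67.0, n = 137) at wider gaps.

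**Figure D2:**
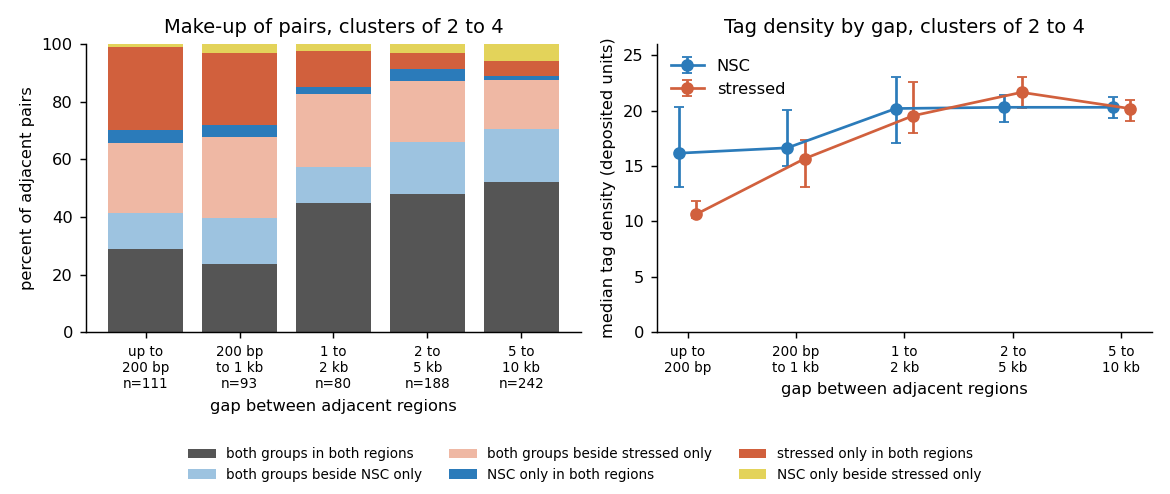
Left, percent of adjacent pairs in clusters of 2 to 4 by the groups present in their regions, for 5 ranges of gap, with the number of pairs under each bar. Right, median NSC and stressed tag density (deposited units) of the regions in the same pairs, with 95% order-statistic intervals. Pairs stressed-only in both regions make up 28.8% at gaps of 200 bp or less, where the median stressed tag density is 10.7, and 5.37% at gaps from 5 to 10 kb, where it is 20.2.

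Median tag density of clustered regions was somewhat above that of isolated regions, and more so in clusters of 2 to 4 once shared records were joined. The median NSC tag density was 19.6 (18.7 to 20.3, n = 995) in clusters of 2 to 4 and 18.8 (17.1 to 22.1, n = 178) in clusters of 5 or more, against 18.0 in isolated regions. The median stressed tag density was 18.7 (18.1 to 19.3, n = 1147), 20.1 (18.6 to 22.7, n = 199) and 18.0 in the same order. With shared records joined, the median NSC value was 20.3 (19.5 to 20.9) in clusters of 2 to 4. It was 19.6 (17.5 to 23.2) in the larger clusters and 18.0 (17.6 to 18.2) in isolated regions. The joined stressed medians were 20.001 (19.3 to 20.8), 21.0 (19.0 to 23.4) and 17.9 (17.5 to 18.1) in the same order. The highest values in clusters of 2 to 4 were 67.1 for NSC and 71.9 for stressed. By nearest neighbour, the median deposited tag density of regions outside the larger clusters was 13.97 (12.9 to 14.8, n = 395) at gaps of 1 kb or less, 20.6 at 2 to 5 kb, 20.7 at 5 to 10 kb and 19.5 at 10 to 20 kb. It was 16.9 (16.7 to 17.3, n = 3965) in regions with no neighbour within 50 kb. With shared records joined, regions of clusters of 2 to 4 in pairs at 1 kb or less had a median of 18.8 (17.2 to 21.0).

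Where both groups had a peak, tag densities of the groups were alike. The log2 ratio of stressed over NSC had a median of 0.12 (0.10 to 0.13, n = 816) in clusters of 2 to 4 and 0.11 (0.05 to 0.18, n = 150) in the larger clusters, against 0.11 over all merged regions with both groups. A value above 0 means a higher stressed tag density, and dividing each group by its own median brought 0.12 to 0.062. The stressed value was higher by 2-fold or more in 11 of the 816 regions in clusters of 2 to 4 and in 5 of the 150 in the larger clusters, against 1.53% over all merged regions with both groups. It was lower by 2-fold or more in 4 and in 1, against 0.418%. Log2 ratios had an SD of 0.38 among regions in clusters of 2 to 4, 0.51 in the larger clusters and 0.37 in isolated regions. Across regions, log2 tag density of the groups had a Pearson r of 0.869 in clusters of 2 to 4 and 0.775 in the larger clusters, and both groups share the genome position, the pipeline and the limit of the merged list.

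**Figure D3:**
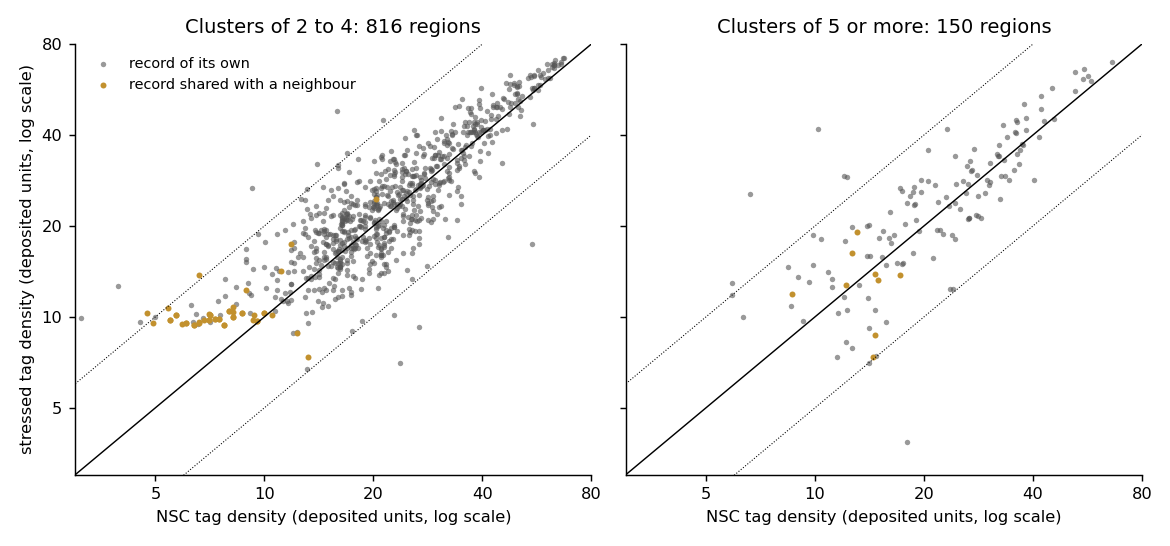
NSC tag density against stressed tag density, both in deposited units on log scales, for clustered regions with a peak from both groups. Each point is 1 region, yellow points share a record with a neighbour, the solid line marks equal values and dotted lines mark 2-fold differences. Most points lie between the dotted lines, and 15 of 816 regions on the left and 6 of 150 on the right lie on or beyond them.

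The strongest clusters of 2 to 4 were pairs with both groups in each region. The highest mean tag density was on chromosome 10 from 55426280 to 55429587. Its first region had 63.0 in NSC and 69.5 in stressed, and its second, 1094 bp on, had 62.3 and 68.7. The members were thus nearly equal within each group, and both were higher in stressed by 0.14 on the log2 scale. On chromosome 1 from 228137986 to 228142703 the pair had 53.4 and 63.2 in NSC and 61.7 and 66.4 in stressed. On chromosome 4 from 186906547 to 186915213 the values were 49.0 and 49.7 in NSC and 59.5 and 58.2 in stressed, across a gap of 6623 bp. A pair on chromosome 10 from 15866897 to 15867867 had a gap of 24 bp. Its regions had 58.2 and 47.5 in NSC and 62.2 and 56.9 in stressed, so these near-touching regions carried records of their own. The last of the 5 pairs, on chromosome 3 from 183257181 to 183259724, was less even, with 50.6 and 30.6 in NSC and 59.9 and 45.5 in stressed. All 10 regions of these 5 pairs had the higher value in the stressed list, as did 64.8% of all merged regions with both groups.

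Other clusters paired a strong region with a weak one. On chromosome 17 from 24766172 to 24774700 the first region had 48.8 in NSC and 58.7 in stressed, and the second, 7229 bp on, had only a stressed peak of 9.77. On chromosome 3 from 130574408 to 130578256 a region with 60.4 in NSC and 68.9 in stressed followed 2 stressed-only regions of 18.7 and 11.6. On chromosome 4 from 243484055 to 243489971 both regions held both groups, with 10.9 and 61.6 in NSC and 13.3 and 61.7 in stressed. These 3 clusters had the largest ratios of highest to lowest deposited tag density among clusters of 2 to 4, whose median ratio was 1.42 (1.37 to 1.47, n = 612). In most adjacent pairs the members were closer, with a median fold of 1.37 between them, and 148 of 714 pairs (20.7%) were at least 2-fold apart. The stronger member of a pair held both groups in 74.5% of pairs (71.2 to 77.6) and the weaker in 49.3% (45.7 to 53.0). Members were ranked by deposited tag density, mostly the only or higher group value. The limit given for the classes of tag density thus holds here too.

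Neighbours resembled each other in strength. Across the 714 adjacent pairs of clusters of 2 to 4, log2 deposited tag density of the members had a Pearson r of 0.410, and across the 202 pairs of larger clusters 0.631. Over all 916 pairs r was 0.455, and 0.341 over 834 pairs with shared records joined. In clusters of 2 to 4 the value was 0.258 over the 641 pairs with records of their own, and it was 0.221 for gaps above 1 kb (n = 510). Pairs of one cluster share libraries and local background, and pairs in clusters of 3 or more share regions.

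Neighbours resembled each other less in how they differed between groups, over fewer pairs and in a ratio of values without replicate error. Log2 ratios of neighbours in clusters of 2 to 4 that both held both groups had a Pearson r of 0.19 over 306 pairs, and 0.14 over 293 pairs with shared records joined. Log2 deposited tag density, with shared records joined, had an r of 0.264 over 644 pairs of these clusters. For pairs with records of their own, r was 0.33 at gaps of 1 kb or less (n = 40) and 0.10 at wider gaps (n = 252). In larger clusters r was -0.21 over 96 pairs. The values of 0.19 and -0.21 rested on 1 cluster each. Without the cluster on chromosome 2 from 100089114 to 100101096, r in clusters of 2 to 4 was 0.0592 over 303 pairs. This cluster also has gaps of 262 and 605 bp, between regions with log2 ratios of -0.80, -0.93 and -1.53. The r of 0.33 at close gaps was not recomputed without it. Without the cluster on chromosome 6 from 39253755 to 39274847, r in the larger clusters was -0.0417 over 95 pairs. Both members lay on the same side of the median log2 ratio in 171 of 306 pairs (55.9%, 50.3 to 61.3) and in 51 of 96 (53.1%, 43.2 to 62.8). The median difference of log2 ratio between neighbours was 0.24 (0.21 to 0.29) in clusters of 2 to 4 and 0.34 (0.26 to 0.47) in the larger clusters. Log2 ratios were at least 1 apart in 13 of the 306 pairs and in 11 of the 96.

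**Figure D4:**
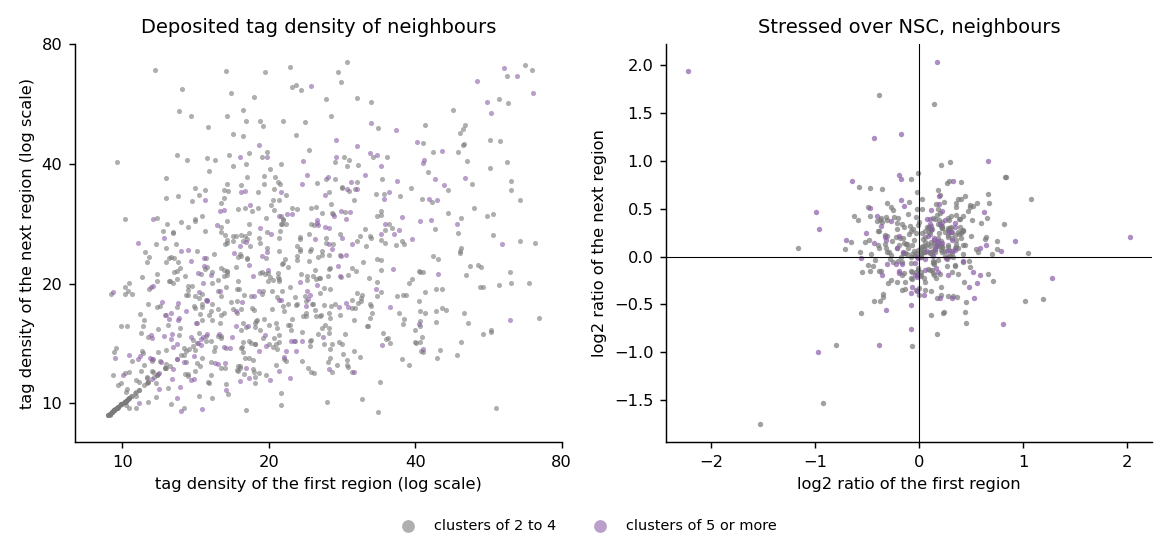
Left, deposited tag density of a region against that of the next region of its cluster, both on log scales. Right, log2 of stressed over NSC in a region against that of the next region, for pairs in which both held both groups. Each point is 1 adjacent pair, grey in clusters of 2 to 4 and purple in clusters of 5 or more. The short diagonal line of points near a tag density of 10 on the left is made of pairs with equal values. On the right the points form a cloud around 0, with r of 0.19 for the grey and -0.21 for the purple points, and the purple point at the upper left is the pair on chromosome 6.

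Stressed-only regions more often had a neighbour of their own kind than NSC-only regions did, and they were also the more common kind. Within clusters of 2 to 4, neighbours of stressed-only regions were stressed-only in 176 of 356 cases (49.4%, 44.3 to 54.6), and in 110 of 268 (41.0%, 35.3 to 47.0) with shared records joined. Neighbours of NSC-only regions were NSC-only in 44 of 188 (23.4%, 17.9 to 30.0), and in 44 of 185 (23.8%, 18.2 to 30.4) with shared records joined. Stressed-only regions were 24.96% and NSC-only regions 13.5% of all regions in these clusters, and 20.7% and 14.7% with shared records joined. An NSC-only region stood beside a stressed-only one in 26 of 714 pairs (3.64%, 2.497 to 5.28). Each pair counts once from either side here, so the cases are not independent.

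Whole clusters could be sorted by their members. Of the 612 clusters of 2 to 4, 247 (40.4%) held both groups in every region, 253 (41.3%) mixed such regions with single-group ones, and 112 (18.3%) had no region with both. Among the last, 70 were stressed-only throughout, 19 were NSC-only throughout and the others held regions of both kinds. Of the 70, 29 were 1 record throughout, and of the 247 with both groups in every region, 10 were. With shared records joined, 41 of 552 clusters were stressed-only throughout (7.43%), 19 were NSC-only throughout and 237 held both groups in every region. Of the 247, all regions were higher in stressed in 109, all were lower in 30, and 108 had regions of either direction. Over all merged regions with both groups, 64.8% were higher in stressed, as were 66.7% of those in clusters of 2 to 4, and the counts stand against this shift of the whole list. As listed, the region with the highest NSC tag density was also the one with the highest stressed tag density in 212 of the 247 (85.8%, 80.9 to 89.6). Of these 247, 222 were clusters of only 2 regions, and equal values counted as the first region. No background was computed for this share. The 64.8% higher in stressed is a share of single regions. No background was computed for clusters in which every region must go the same way. Among the 25 clusters of 3 or 4 regions with both groups in every region, all regions were higher in stressed in 8 and all lower in 1.

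That 1 cluster was on chromosome 2 from 100089114 to 100101096. It and the others in this and the next paragraph were picked after their values were seen. Its 4 regions had NSC tag densities of 24.8, 28.1, 26.7 and 23.6 and stressed tag densities of 14.3, 14.8, 9.25 and 7.03. The log2 ratios were -0.80, -0.93, -1.53 and -1.75, so every region was lower in stressed while the NSC values were nearly level. The last of these is also among the 3 lowest log2 ratios of all clustered regions. The stressed values of 9.25 and 7.03 lie under 9.37, the lowest deposited tag density of the merged list, and those of 14.3 and 14.8 lie above it. On chromosome 10 from 75334993 to 75343232, regions 6718 bp apart had 21.6 and 23.1 in NSC and 14.7 and 15.4 in stressed. Other pairs were higher in stressed in both regions. On chromosome 16 from 9268399 to 9270330 the regions had 13.8 and 34.4 in NSC and 19.4 and 49.9 in stressed, with log2 ratios of 0.49 and 0.54. On chromosome 20 from 24168353 to 24173922 they had 15.5 and 19.6 in NSC and 21.7 and 28.2 in stressed.

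Clusters with both groups in all 4 regions also held strong sites with small differences. On chromosome 20 from 31333477 to 31346294 the regions had 62.1, 63.4, 23.4 and 16.7 in NSC and 67.3, 70.6, 25.3 and 20.7 in stressed, in the same order of strength in both groups. On chromosome X from 115871310 to 115882518 they had 60.7, 32.4, 20.3 and 17.8 in NSC and 65.7, 25.3, 26.03 and 19.5 in stressed. There the second region was lower in stressed by 0.36 on the log2 scale and the third higher by 0.36. Single-group clusters reached high values too. On chromosome 18 from 27526531 to 27527573, NSC-only regions 18 bp apart had 42.0 and 50.1 and no stressed peak. On chromosome 10 from 56385377 to 56392777, stressed-only regions 6692 bp apart had 25.1 and 35.8 and no NSC peak.

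The most divergent neighbours lay in short stretches. On chromosome 6, the region from 39273062 to 39273430 had 17.9 in NSC and 3.84 in stressed, a log2 ratio of -2.22, which is the lowest among clustered regions. The next region, from 39274014 to 39274847 and 584 bp on, had 6.63 in NSC and 25.4 in stressed, a log2 ratio of 1.94. This was the only one of 402 pairs with both groups in both regions in which one member was at least 2-fold lower and the other at least 2-fold higher in stressed. On chromosome 14, the region from 46822917 to 46823399 had 10.2 in NSC and 41.7 in stressed, a log2 ratio of 2.03 and the highest among clustered regions. The region before it, 232 bp away, had 24.5 and 27.6. On chromosome 7, the region from 5209971 to 5210325 had 3.94 in NSC and 12.7 in stressed (1.69), beside one with 13.5 and 10.4 (-0.39). On chromosome 2, the region from 230822265 to 230822722 had 54.8 in NSC and 17.4 in stressed (-1.65), and 91 bp before it lay a stressed-only region of 17.7. The low values of 3.84, 6.63 and 3.94 lie under 9.37, the lowest deposited tag density of the merged list. Those regions thus entered the list by the value of the other group alone. The low values of 10.2 and 17.4 lie above it. The authors took the strongest peaks of each group apart, and the lowest value taken per group was not computed here. Whether the NSC value of 10.2 would have entered the list by itself is thus not known. A list chosen by the higher value may favour large ratios, and its part in these ratios was not tested.

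The clusters of 5 or more were few and uneven. Only 3 of the 25 held both groups in every region, while the other 22 mixed such regions with NSC-only or stressed-only ones. None lacked a region with both groups. The largest, on chromosome 14 from 46778307 to 46835130, held 30 regions, of which 25 held both groups. Its NSC tag density ran from 10.2 to 43.0 and its stressed tag density from 11.4 to 50.6. In 12 of the 25 regions stressed was higher and in 13 it was lower. Clusters of 17 and 9 regions lay on either side of it. From the first of these 3 clusters to the last, 170.5 kb held 59 regions, 56 of them in the 3 clusters, and 47 of the 59 held both groups. The second largest, on chromosome 1 from 13528770 to 13564831, held 19 regions, 18 with both groups. Its NSC values ran from 11.6 to 41.5 and its stressed values from 8.28 to 45.5, with 8 regions higher and 10 lower in stressed. Before it, from 13498113 to 13501101, lay a cluster of 3 stressed-only regions of 21.3, 28.3 and 34.8, picked after its values were seen.

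**Figure D5:**
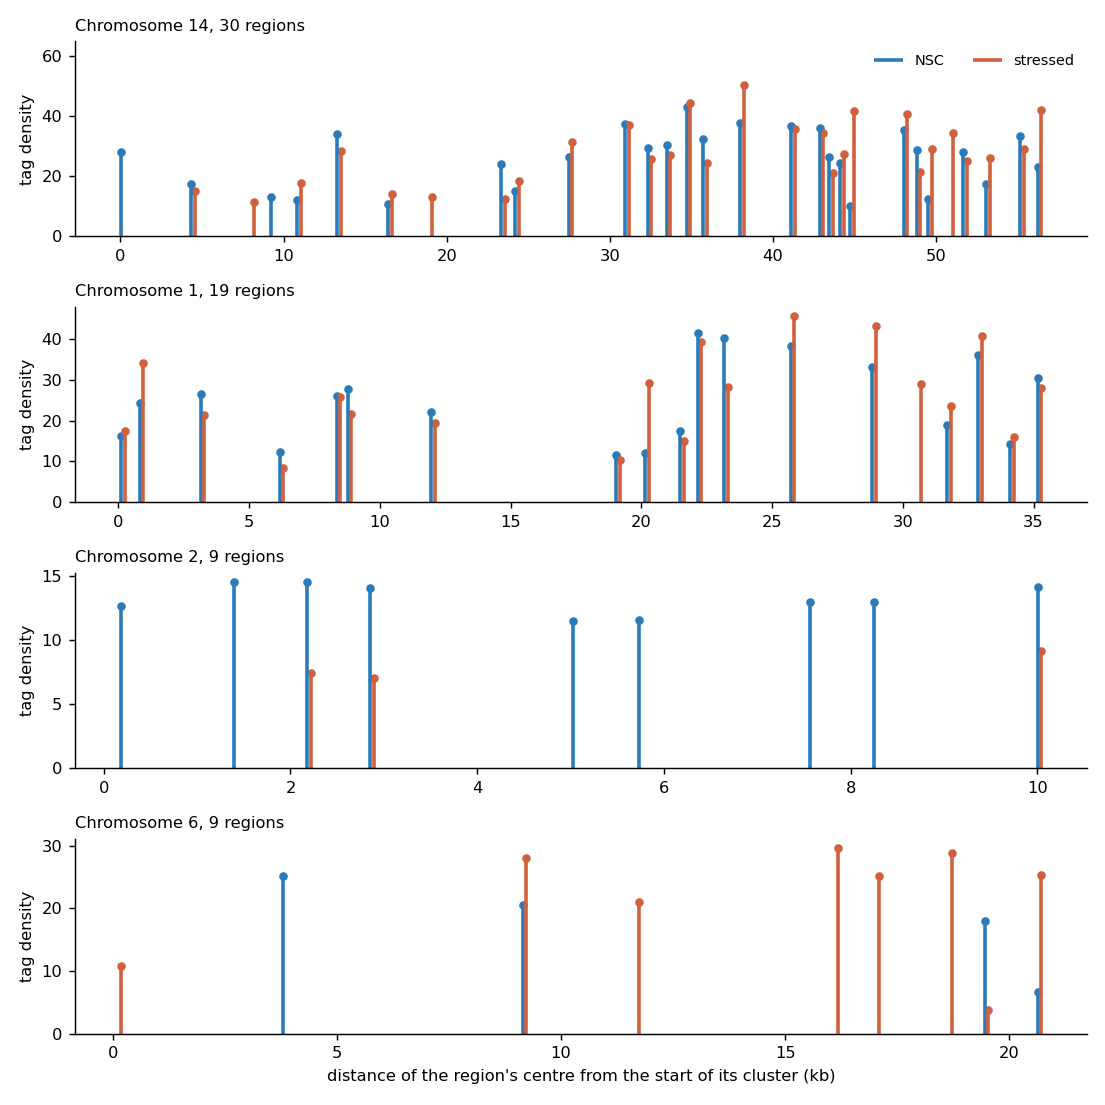
Tag density in deposited units of each region in 4 clusters of 5 or more, against the distance in kb of the region's centre from the start of its cluster. Blue is NSC and orange stressed, each line is 1 region in 1 group, and a missing line means that the group's list had no peak there. NSC and stressed values follow each other in most regions of the upper panels, the third panel has 3 stressed values for 9 regions, and the fourth has 4 NSC values for 9 regions.

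Some of the larger clusters leaned to one group. On chromosome 2 from 67693143 to 67703391, NSC tag density of the 9 regions was 11.5 to 14.5. A stressed peak was present in 3 of them, with 7.38, 7.04 and 9.17, and the log2 ratios there were -0.97, -0.999 and -0.62. In 2 of its adjacent pairs the regions carried the same NSC record. On chromosome 6 from 39253755 to 39274847, 5 of 9 regions were stressed-only, with 10.8, 21.0, 29.6, 25.1 and 28.8, and 1 was NSC-only, with 25.2. This cluster also holds the divergent neighbours described above. On chromosome 19 from 5807925 to 5827200, stressed was higher in all 9 of the 13 regions that held both groups, with log2 ratios of 0.01 to 0.79, beside 2 NSC-only and 2 stressed-only regions. On chromosome 16 from 21981341 to 22002896, 4 of 12 regions held both groups, 3 were NSC-only and 5 stressed-only, and the highest deposited tag density was 19.6. In 1 adjacent pair of this cluster the regions carried the same NSC record.

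On chromosome 3 the cluster from 58676802 to 58690987 held 11 regions, 7 with both groups, with log2 ratios of -0.99 to 0.59, and the cluster from 26744441 to 26756811 held 10, 8 with both groups, with -0.76 to 0.81. Each of these clusters had 2 adjacent pairs whose regions carried a common record. The larger clusters with the highest median tag density, picked after their values were seen, differed from these. On chromosome 20 from 10290971 to 10302928 all 5 regions held both groups, with 52.3, 45.1, 42.2, 52.2 and 55.4 in NSC and 56.1, 57.3, 53.6, 64.6 and 66.3 in stressed. On chromosome 8 from 51660851 to 51673855 the 5 regions had 55.0, 66.0, 58.0, 25.1 and 19.6 in NSC and 61.0, 69.8, 60.2, 22.8 and 28.4 in stressed. In the former, stressed was higher in every region, and in the latter in 4 of 5.

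The z-score of the peak caller, set against tag density, had a higher median in the larger clusters than in other regions, although the classes overlapped. The median z-score per unit of tag density was 2.43 (1.86 to 3.17) for NSC peaks and 2.27 (1.61 to 2.80) for stressed peaks in clusters of 5 or more. In clusters of 2 to 4 it was 0.818 and 0.887, and in isolated regions 0.819 and 0.870. Leaving out chromosome 14 gave 2.88 and 2.26 for the larger clusters. Peaks outside the merged list had 5.54 and 5.39, so the larger clusters lay between these and the other merged regions. The clusters on chromosomes 8 and 20 described above were at 0.81 and 0.74 for stressed peaks, and 7 of the 25 clusters were under 1.5, a limit set after the values were seen. Stressed peaks over 1.5 made up 59.3% (118 of 199) in the larger clusters. They made up 21.2% (243 of 1147) in clusters of 2 to 4 and 16.4% (783 of 4765) in isolated regions. Regions with shared records in clusters of 2 to 4 had a median of 5.66 (4.97 to 6.38, n = 136) for stressed peaks, against 0.852 (0.836 to 0.873, n = 1017) for regions in pairs with records of their own. The part of local background or of the peak caller's windows in these values was not tested.

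Weaker peaks that did not enter the merged list were counted inside the span of each cluster and within 10 kb of each region. Of the 612 clusters of 2 to 4, 17 (2.78%, 1.74 to 4.40) had such a peak of either group inside their span, and 11 of the 25 larger clusters did. The median spans were 4820 and 19042 bp, and no share was computed for spans of equal length elsewhere. These counts therefore do not show whether weaker peaks were scarce or common inside clusters. Within 10 kb of a region, such a peak was found for 16.2% (14.3 to 18.3) of regions in clusters of 2 to 4, 14.7% (13.8 to 15.7) of isolated regions and 38.3% (32.2 to 44.8) of regions in the larger clusters.

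Clustered regions were found on all 20 numbered chromosomes and X. Their share of a chromosome's regions was highest on chromosome 19, with 76 of 234 (32.5%, 26.8 to 38.7), and on chromosome 14, with 96 of 306 (31.4%, 26.4 to 36.8), of which 56 were in clusters of 5 or more. It was lowest on chromosome 7, with 51 of 363 (14.05%, 10.9 to 18.0), and on X, with 21 of 148 (14.2%, 9.47 to 20.7). Chromosome 10 had 116 of 451 (25.7%) and chromosome 12 had 37 of 228 (16.2%), all in clusters of 2 to 4.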

How the data were processed

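GR ChIP and input libraries of the NSC and stressed groups were grouped by the sample labels. Alignment by the authors used Bowtie2 and the rn5 build. Tags were extended, duplicates dropped, coverage set against input and simple repeats masked, and Hotspot peaks were kept where the replicates shared them. The deposited maximum tag density is a coverage signal with 1 value per group and peak. The deposited z-score is a score of the authors' peak caller. The deposited p-value came from the same step and was used only to find peaks listed in pieces. In the merged list the authors joined the strongest peaks of each group.

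From these 3 lists, regions were chained at gaps of 10 kb or less, and peaks were assigned by an overlap of 1 bp. Regions named in the text are the 5 clusters of 2 to 4 with the highest mean tag density and the 3 with the largest ratio of highest to lowest, the 10 largest clusters, and the 3 most divergent neighbours and the 3 largest log2 ratios in either direction. Others are said to be chosen after their values were seen, as were the shared records and the ranges of gap. The members and lists were chosen with earlier results of these data known. Alternatives were other gap limits, overlaps, filters and scalings. Chaining and assignment were tested on simulated data. Python 3.11.15, numpy 2.4.6, scipy 1.17.1, pandas 2.3.3 and matplotlib 3.10.9 were used. Genes, annotation and base letters of rn5 were not analysed here.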

Additional observations from a re-analysis of the deposited data

How the results depend on the processing

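No paired analysis was possible because the lists hold 1 combined value per group, so no replicate could be paired or left out. Of 104 values recomputed with another gap limit, overlap, filter or scaling, 88 stayed within 1.5 times a count or within the 95% interval of a share, median or correlation. A change of sign was looked for only in median log2 ratios and correlations, and none was found. Chaining only regions at or above the median tag density left 616 clustered regions, 523 in 239 clusters of 2 to 4 and 93 in 10 of 5 or more. Both groups were then present in 85.5% and 87.1% of them, with median tag densities of 24.8 and 27.2 in NSC and 25.7 and 28.9 in stressed. A gap limit of 5 kb gave a share with both groups of 57.4% in clusters of 2 to 4 and an r between neighbours of 0.508. A limit of 20 kb gave an r of 0.388, and a weaker peak in the span of 4.99% of clusters of 2 to 4. It also chained the 3 clusters on chromosome 14 into 1 of 59 regions and the cluster on chromosome 3 from 58676802 into 1 of 17, while 5 kb cut the clusters of 19 and 17 to 12 and 6. Scaling each group to its median gave a median log2 ratio of 0.062 in clusters of 2 to 4. The other alternatives were chosen after seeing the data. Joining regions 1 kb or less apart left 65 regions in 10 clusters of 5 or more and a share with both groups of 69.0% in clusters of 2 to 4, and joining those 200 bp or less apart gave 64.9%. Joining shared records gave 64.5%, a median stressed tag density of 20.001 in clusters of 2 to 4 and an r of 0.341. Leaving out the cluster of the pair farthest from 0 gave an r between log2 ratios of neighbours of 0.0592 in clusters of 2 to 4 and -0.0417 in clusters of 5 or more. Beyond the joining itself, the cause was not tested. Depth per library is not given in the lists, so the precision of a single tag density is unknown. The planned description of genes and motifs at the regions was not run.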
